A study of Mus musculus with 15 samples.

Results

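Gene expression in the M clone of 4T1 cells was compared with that in the E2 clone of the same line, using all 3 M libraries and all 3 E2 libraries, which are 6 of the 15 libraries of the study. 4T1 is a mouse mammary carcinoma line, and the study measured RNA in its parental population and in 4 clonal populations, E1, E2, A and M, with 3 biological replicates of each. M and E2 were both labelled wild type, and both descend from single parental cells isolated after transfection with pNLS-iRFP670, a plasmid for a near-infrared fluorescent protein with a nuclear localisation signal. Both clones were kept in G418, the selection antibiotic, which was withdrawn before RNA was collected at 72 h of culture and about 80% confluency. Transfection, selection and its withdrawal were therefore common to M and E2. Each clone goes back to 1 founder cell, so that a trait of the clone cannot be told apart from the state of that founder, and the p-values measure only the spread between these libraries.

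Clones of a tumour line inherit the expression state and the chromosomes of their founder. Carcinoma clones commonly differ in secreted matrix proteins, in adhesion receptors and in growth factors, the proteins through which a tumour cell meets its surroundings. Mouse carcinoma lines are also often aneuploid, and the RNA level of a gene tends to follow its copy number. DNA copy number was not measured here.

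The 3 M libraries held 23397818 to 36831801 counts and the 3 E2 libraries 20494390 to 30002009. The 6 identifiers with the most counts, among them ribosomal RNA of the mitochondrion and an identifier with no gene name that alone took 37.8% to 44.7% of an M library and 38.5% to 49.1% of an E2 library, left 7657054 to 14206491 counts for all other genes in M and 6164768 to 11419324 in E2. Levels below are CPM, a gene's counts relative to the library total after scaling of the totals (trimmed mean of M-values, TMM), given for replicates 1, 2 and 3 of M and then of E2. The labelled cell type fitted its markers: Epcam had 40.5, 57.6 and 41.8 CPM in M and 70.9, 43.0 and 45.9 CPM in E2, and Krt8 had 75.4, 173 and 128 CPM in M and 103, 119 and 116 CPM in E2. Markers of other cell types were low. The 20 leukocyte markers summed to 1.41 to 3.04 CPM in M and 1.92 to 2.65 CPM in E2, with Ptprc, Cd3e, Adgre1 and Itgam at 0 counts in all 6 libraries. The 14 fibroblast markers summed to 6.30 to 12.7 CPM in M and 16.1 to 18.7 CPM in E2, and the list holds Postn, described below, and Pdgfra, with 6.08, 12.1 and 8.94 CPM in M and 3.59, 4.5 and 9.45 CPM in E2, while Col3a1, Dcn and Lum were at 0 counts. The 17 endothelial and pericyte markers summed to 8.68 to 12.8 CPM in M and 6.69 to 10.8 CPM in E2, with Cdh5, Emcn and Rgs5 at 0 counts in all 6 libraries, and the 14 adipocyte and nerve markers to 1.39 to 3.70 CPM in M and 1.29 to 2.97 CPM in E2. Libraries of a clone were not all closest to each other. M replicate 2 had a correlation of log2 CPM across genes of 0.967 with E2 replicate 3, against 0.953 and 0.959 with M replicates 1 and 3. E2 replicate 1 had correlations of 0.953 and 0.959 with E2 replicates 2 and 3, which correlated at 0.957 and 0.967 with M replicate 2. M replicate 2 differed from the other M libraries in cell cycle, histone and sterol genes, and those results are given with and without it.

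Of 12712 genes tested, 445 (3.5%) differed between M and E2 at an adjusted p under 0.05 in edgeR's quasi-likelihood test, 245 higher in M (1.93%) and 200 lower in M (1.57%). The difference was at least 2-fold for 186 of them (1.46%). The clones did not overlap for 19.4% of tested genes: the 3 M libraries all lay above the 3 E2 libraries for 10.1% and all below them for 9.31%. The median log2 fold change over all tested genes was 0.00, and the scaling left no common shift between the clones. Among the called genes with a symbol and a mean of at least 5 CPM in the clone with the higher level, log2 fold changes reached -4.50 on the lower side and 1.91 on the higher side. The count moved with the libraries, to 208 without M replicate 3, 241 without E2 replicate 1 and 723 without M replicate 2, and 143 of the 445 genes were called whichever of the 6 libraries was left out. With the 6 libraries fitted alone 174 genes were called and with DESeq2 743, and the share of calls that were higher in M was 55.1%, against 40.8% with the 6 libraries alone and 42.6% without M replicate 2.

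**Figure D1:**
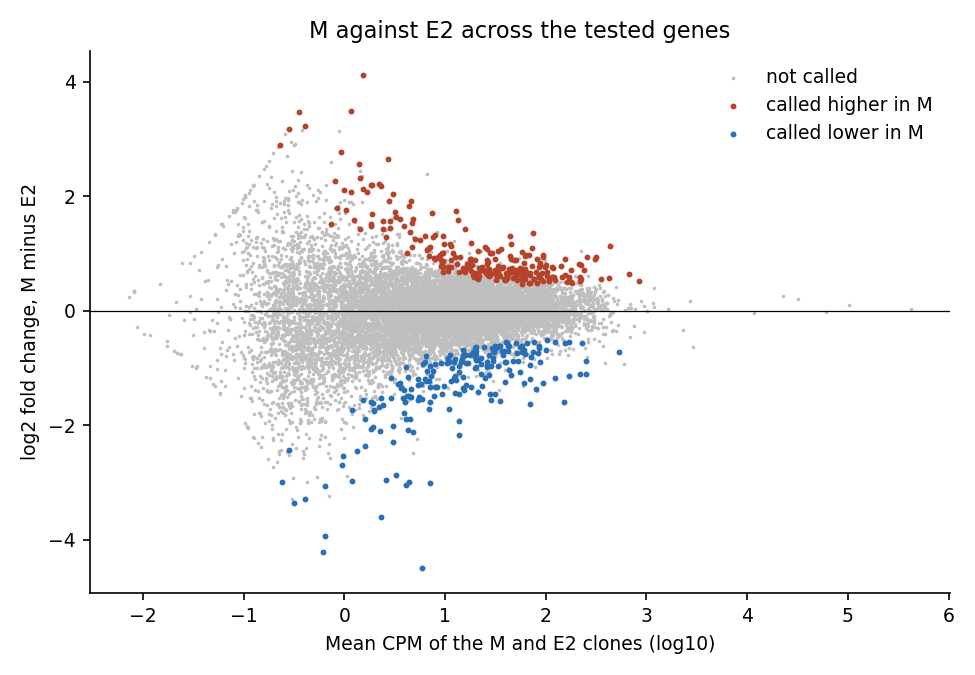
Each point is a tested gene, with the mean CPM of the M and E2 clones on a log10 axis and the log2 fold change of M minus E2 on the vertical axis; genes with an adjusted p under 0.05 are coloured. The 245 genes higher in M and the 200 lower in M lie on both sides of 0, and the lowest point is Postn at -4.50.

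Among called genes with a mean of at least 5 CPM in the clone with the higher level, the largest difference was that of Postn, which encodes periostin, a matricellular protein that binds integrins. Postn (identifier 50706, chromosome 3, 54359267 to 54391041, GRCm38) had 0.176, 0.539 and 0.550 CPM in M and 13.6, 11.5 and 8.78 CPM in E2. Every M library was more than an order of magnitude below every E2 library, and the log2 fold change was -4.50 ± 0.48 (SE; adjusted p = 9.49e-06). In the other direction stood Spp1, which encodes osteopontin, a secreted phosphoprotein and ligand of integrins and of CD44. Spp1 (identifier 20750, chromosome 5, 104435111 to 104441053) had 92.6, 105 and 126 CPM in M and 25.1, 47.4 and 54.1 CPM in E2, with no overlap between the clones and a log2 fold change of 1.35 ± 0.36 (adjusted p = 0.00119). Areg, which encodes amphiregulin, a ligand of the EGF receptor, had 5.16, 7.16 and 4.95 CPM in M and 1.93, 1.85 and 2.28 CPM in E2. Its log2 fold change was 1.48 ± 0.19 (adjusted p = 0.0136), a call that was lost without E2 replicate 1 or 2 (adjusted p up to 0.0535). The 250 bases before the transcription start of these 3 genes are shown because they are secreted products with changes of opposite direction; sequences are from RefSeq, build GRCm38.p6, written on the strand of the gene, with motif matches in capitals. They lie at chr3:54359017-54359266 (Postn), chr5:104434861-104435110 (Spp1) and chr5:91139349-91139598 (Areg), all on the plus strand. Postn and Spp1 have 2 listed starts each, and only the window of the first listed start was searched.
Postn: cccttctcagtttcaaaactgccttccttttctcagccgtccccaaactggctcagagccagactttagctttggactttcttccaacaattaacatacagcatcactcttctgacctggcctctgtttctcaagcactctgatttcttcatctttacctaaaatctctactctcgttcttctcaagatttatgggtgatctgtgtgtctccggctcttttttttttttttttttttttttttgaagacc
Spp1: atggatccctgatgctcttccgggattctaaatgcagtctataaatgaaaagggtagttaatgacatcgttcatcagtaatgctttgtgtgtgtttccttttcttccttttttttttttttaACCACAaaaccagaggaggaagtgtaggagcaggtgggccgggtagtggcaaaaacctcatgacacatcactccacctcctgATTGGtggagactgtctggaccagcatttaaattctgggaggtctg
Areg: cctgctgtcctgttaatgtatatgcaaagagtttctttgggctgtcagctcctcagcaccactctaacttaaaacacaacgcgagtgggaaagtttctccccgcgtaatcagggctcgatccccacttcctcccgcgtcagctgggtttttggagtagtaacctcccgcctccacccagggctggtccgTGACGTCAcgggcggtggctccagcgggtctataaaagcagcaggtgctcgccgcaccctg
Motifs were searched on both strands as an AP-1 site (TGANTCA), a CRE (TGACGTCA), a TEAD site (GGAATG), a RUNX site (TGTGGT) and a CCAAT box (CCAAT). The Postn window held none of them. The Spp1 window held a RUNX match as ACCACA, 128 bases before the start, and a CCAAT box as ATTGG, 46 bases before it. The Areg window held a CRE, 61 bases before the start. Over 32851 RefSeq start windows of the same length, 14% held the RUNX letters, 33.8% the CCAAT box, 12.6% the TEAD site, 6.75% the AP-1 site and 1.55% the CRE. These matches are descriptions of the letters in the windows.

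Matricellular proteins, secreted factors that act on cells from within the matrix, were the list with the largest share of calls among those of the cell surface and matrix: 1 of 15 tested members was higher in M and 4 were lower, with a median log2 fold change of -0.58. That share of 33.3% stands beside 3.5% over all tested genes. Besides Postn and Spp1 the called members were Ccn4, Thbs1 and Has2, an enzyme on the list that is not itself such a secreted factor. Ccn4 and Has2 lie on chromosome 15, where all 56 called genes were lower in M. Ccn4, a target gene of Wnt signalling, had 4.14, 4.04 and 6.67 CPM in M and 18.0, 27.8 and 21.6 CPM in E2 (log2 fold change -2.17 ± 0.29, adjusted p = 0.00186), so the highest M library was far below the lowest E2 library. Thbs1, which encodes thrombospondin 1, had 275, 498 and 449 CPM in M and 693, 604 and 712 CPM in E2 (-0.72 ± 0.27, adjusted p = 0.039). Has2, the main hyaluronan synthase of many mesenchymal cells, had a log2 fold change of -0.96 ± 0.35 (adjusted p = 0.0363). The calls of Thbs1 and Has2 held only when M replicate 2 was left out; leaving out M replicate 1 or 3 or any E2 library gave adjusted p values up to 0.187 and 0.105. Tnc (log2 fold change 0.35), Sparc (0.26) and Ccn1 (-0.58) were not called.

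Structural matrix genes had 3 calls. Of 16 collagen genes tested, 1 was lower in M (6.25%, against 3.5% of all tested genes): Col12a1, a collagen associated with fibril surfaces, had 7.49, 10.7 and 7.93 CPM in M and 17.7, 16.2 and 21.7 CPM in E2 (log2 fold change -1.08 ± 0.20, adjusted p = 0.00447). Of 15 laminin and basement membrane genes, 2 were higher in M (13.3%). Fbln2, which encodes the matrix glycoprotein fibulin 2, had 221, 340 and 254 CPM in M and 138, 135 and 190 CPM in E2 (0.82 ± 0.24, adjusted p = 0.00397; 0.0521 with the 6 libraries fitted alone). Npnt, nephronectin, a ligand of integrin alpha 8 beta 1, had 13.8, 23.6 and 18.1 CPM in M and 11.9, 7.02 and 10.3 CPM in E2 (0.93 ± 0.32, adjusted p = 0.0105), a call lost without E2 replicate 2 (adjusted p = 0.0691). Neither clone's libraries overlapped with the other's for Col12a1, Fbln2 or Npnt. Fn1, fibronectin, had 266, 455 and 330 CPM in M and 340, 236 and 327 CPM in E2, with a log2 fold change of 0.22 ± 0.28 and wide overlap.

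Among matrix metalloproteases, their relatives and inhibitors, 1 of 27 tested genes was higher in M and 2 were lower (11.1%, against 3.5% overall). Adam9, a membrane-bound sheddase, had 102, 149 and 138 CPM in M and 60.1, 83.5 and 79.2 CPM in E2 (log2 fold change 0.80 ± 0.22, adjusted p = 0.003). Adamts14, which removes the amino-terminal propeptide of procollagen and was outside that list, had 7.27, 4.83 and 7.64 CPM in M and 2.08, 2.65 and 2.64 CPM in E2 (1.38 ± 0.24, adjusted p = 0.00487). Both proteases were above E2 in every M library. Adamts4 and Adamts9, proteoglycan-cleaving enzymes, were lower in M (-1.74 and -2.69) but below 2 CPM on average in E2, and each call was lost without M replicate 3, E2 replicate 1 or E2 replicate 3, without M replicate 1 for Adamts4 and without E2 replicate 2 for Adamts9 (adjusted p up to 0.213). The gelatinase Mmp9 had 3.48, 16.2 and 9.91 CPM in M and 13.8, 7.47 and 9.48 CPM in E2, and its libraries overlapped. Of 24 genes of the plasminogen system, coagulation and other serine proteases, 3 were higher in M and 1 was lower (16.7%). None of these 4 calls held in all fits that left out a library.

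Of 27 tested genes of cell adhesion molecules and proteoglycans, 5 were higher in M and 2 lower (25.9%, against 3.5% of all tested genes). The median log2 fold change was 0.33, and without E2 replicate 3 the counts were 2 higher and 1 lower. Nectin2, an adhesion molecule of cell junctions that is also recognised by lymphocyte receptors, had 29.0, 17.4 and 22.7 CPM in M and 8.38, 9.15 and 7.96 CPM in E2 (log2 fold change 1.43 ± 0.22, adjusted p = 0.000159). Sdc4, the heparan sulfate proteoglycan syndecan 4, had 197, 204 and 211 CPM in M and 95.4, 119 and 112 CPM in E2 (0.91 ± 0.10, adjusted p = 0.000126). In both genes the lowest M library was well above the highest E2 library. Bcam, a laminin receptor, Pvr, a nectin-like molecule, and Cd151, a tetraspanin partner of laminin-binding integrins, were higher by 1.57, 0.66 and 0.61, but the calls were not stable. That of Bcam was lost without M replicate 1 or E2 replicate 2 or 3, that of Pvr without M replicate 2 or 3 or E2 replicate 1 or 3, and that of Cd151 without M replicate 2 or 3 or E2 replicate 2 or 3 (adjusted p up to 0.0719, 0.223 and 0.0975). Nectin2, Bcam, Pvr and Cd151 all lie on chromosome 7. Between bases 10000001 and 20000000 of that chromosome, 5 of 86 tested genes were higher in M and none was lower. Nectin2 and Fosb, described below, are among these 5. Whether a shared location had a part in the count of this list was not tested. On the lower side, Icam1, a ligand of leukocyte integrins, had 0.0881, 0.147 and 0 CPM in M and 1.46, 1.5 and 0.638 CPM in E2 (-3.07 ± 0.62, adjusted p = 0.00574). Vcam1, a ligand of integrin alpha 4, had 33.4, 50.5 and 44.9 CPM in M and 62.4, 72.0 and 67.0 CPM in E2 (-0.64 ± 0.19, adjusted p = 0.0252). Neither overlapped between clones. The Icam1 call was lost with the 6 libraries fitted alone (adjusted p = 0.0606), and the Vcam1 call without M replicate 1 or 3 or E2 replicate 2 or 3 (adjusted p up to 0.14).

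Integrins and focal adhesion genes had 1 higher and 1 lower call among 30 tested (6.67%, against 3.5% of all tested genes). Itga6, the alpha chain of laminin-binding integrins, had 150, 206 and 182 CPM in M and 80.4, 108 and 125 CPM in E2 (log2 fold change 0.78 ± 0.23, adjusted p = 0.00447; 0.054 with the 6 libraries fitted alone). Ptk2, which encodes focal adhesion kinase, had 35.3, 42.6 and 34.7 CPM in M and 77.9, 64.6 and 65.2 CPM in E2 (-0.88 ± 0.13, adjusted p = 0.000391). M thus carried more RNA for a laminin receptor and less for this kinase, and the clones did not overlap for either. Itgb4, the usual beta partner of Itga6 in epithelia, did not pass the test (-0.09 ± 0.35), nor did Itgb1 (0.11 ± 0.22). Fermt2, which encodes kindlin 2, an activator of integrins, was chosen after its values were seen; it had 25.8, 27.9 and 22.1 CPM in M and 10.3, 11.3 and 11.7 CPM in E2 (1.18 ± 0.11, adjusted p = 4.81e-05).

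**Figure D2:**
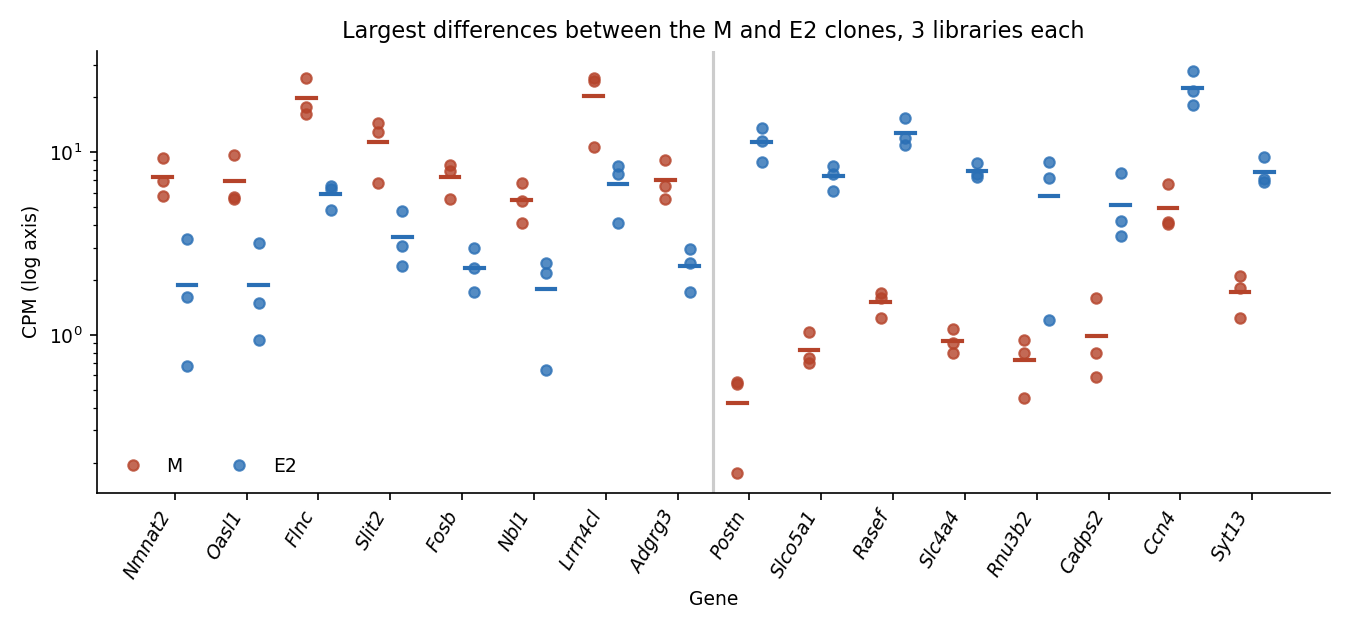
CPM on a log axis in each M library (left of each pair) and each E2 library (right), with bars at the means of 3 libraries, for 8 named genes per direction, those of largest log2 fold change. Postn, Slco5a1, Rasef and Slc4a4 lie at 0.176 to 1.69 CPM in M and 6.11 to 15.4 CPM in E2.

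The remaining genes named for the size of their fold change on the lower side have different functions. Slco5a1, of the organic anion transporter family, had 0.705, 1.03 and 0.745 CPM in M and 8.43, 6.11 and 7.57 CPM in E2 (log2 fold change -3.04 ± 0.21, adjusted p = 6.09e-06). Slc4a4, a sodium bicarbonate cotransporter, had 0.793, 0.907 and 1.07 CPM in M and 8.69, 7.54 and 7.32 CPM in E2 (-2.99 ± 0.14, adjusted p = 6.09e-06). Rasef, a Rab-family GTPase with EF-hand domains (identifier 242505, chromosome 4, 73714577 to 73791236), had 1.59, 1.69 and 1.23 CPM in M and 11.9, 15.4 and 10.9 CPM in E2 (-3.02 ± 0.20), with the smallest adjusted p of the comparison, 2.36e-08. In these 3 genes M libraries were tightly grouped and all E2 libraries were several-fold above them. Cadps2, a priming factor of dense-core vesicles, and Syt13, a synaptotagmin, were lower by -2.29 ± 0.52 and -2.12 ± 0.26 (adjusted p = 0.000874 and 0.0004). Cd109, a glycolipid-anchored protein that binds TGF-beta, had 1.45, 1.96 and 1.68 CPM in M and 7.13, 5.45 and 7.02 CPM in E2 (-1.89 ± 0.17, adjusted p = 0.000999). Denn2b, an activator of Rab GTPases (-1.78 ± 0.50), and the zinc finger transcription factor Bcl11a (-1.71 ± 0.41) were also lower. Myh14, the heavy chain of nonmuscle myosin IIC, was 13.8 CPM in E2 replicate 1 but 2.83 and 4.32 CPM in the other E2 libraries, against 1.45, 1.72 and 1.55 CPM in M. Its log2 fold change of -2.09 ± 0.68 became -1.15 without E2 replicate 1, and the call was lost without that library or M replicate 3 (adjusted p up to 0.181). Among 46 genes of actomyosin and the cytoskeleton, 3 were higher in M (Flnc, Myo5c and Cald1) and 2 were lower (Myh14 and Lmnb1). These were 10.9% of the list, against 3.5% of all tested genes, and the list median was 0.04. Myo5c and Cald1 lost their calls without M replicate 3 or E2 replicate 1, the Myo5c call also without E2 replicate 2 and that of Cald1 without E2 replicate 3, and Lmnb1 lost its call in each of the 6 fits that left out a library (adjusted p up to 0.0929, 0.0981 and 0.223).

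The genes named for the size of their fold change on the higher side were likewise of different functions. Flnc, the actin cross-linker filamin C, had 16.2, 25.3 and 17.7 CPM in M and 6.30, 4.82 and 6.53 CPM in E2 (log2 fold change 1.74 ± 0.24, adjusted p = 0.000812). Fosb, an AP-1 transcription factor, had 8.46, 5.56 and 7.87 CPM in M and 1.72, 2.97 and 2.31 CPM in E2 (1.6 ± 0.29, adjusted p = 0.00331). Dusp4, a phosphatase of MAP kinases, had 65.9, 71.5 and 67.2 CPM in M and 39.3, 42.8 and 44.2 CPM in E2 (0.70 ± 0.06, adjusted p = 0.00315). Fosb and Dusp4 are both induced by growth factor signalling; Jun, of the same family as Fosb, had 29.7, 32.5 and 28.4 CPM in M and 15.1, 17.8 and 21.2 CPM in E2 without passing the test (adjusted p = 0.0529), and Egr1 stood at 0.13 ± 0.26. Adgrg3, an adhesion G protein-coupled receptor, had 5.55, 9.02 and 6.54 CPM in M and 1.72, 2.48 and 2.95 CPM in E2 (1.53 ± 0.30, adjusted p = 0.00206). Dpy19l3, a C-mannosyltransferase of the endoplasmic reticulum, and the membrane proteins Lrrn4cl and Fam171b were higher by 1.30, 1.58 and 1.30, all with M libraries above every E2 library, though Fam171b lost its call with the 6 libraries fitted alone (adjusted p = 0.0542). Nmnat2, an enzyme of NAD synthesis, had the largest log2 fold change of the genes named on this side, 1.91 ± 0.66, but its call was lost without M replicate 3 or E2 replicate 1 or 2 (adjusted p up to 0.108). The BMP antagonist Nbl1 (1.6 ± 0.62) lost its call without M replicate 1 or 2 or E2 replicate 3 (up to 0.122), and Odaph, known from enamel formation (1.32 ± 0.30), without M replicate 3 or E2 replicate 1 (up to 0.115).

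Of 29 guidance genes, 5 were higher in M and none was lower (17.2%, against 3.5% of all tested genes), with a list median of 0.04. Slit2, the secreted ligand of Robo receptors, had 14.5, 6.81 and 12.9 CPM in M and 2.39, 3.07 and 4.77 CPM in E2 (log2 fold change 1.71 ± 0.44, adjusted p = 0.00278). Sema7a, a membrane-anchored semaphorin that binds integrin beta 1, had 8.06, 8.85 and 10.3 CPM in M and 3.43, 2.51 and 4.95 CPM in E2 (1.30 ± 0.30, adjusted p = 0.00306). Neither gene overlapped between the clones. Plxnd1, a semaphorin receptor, Sema4b and the netrin receptor Neo1 were higher by 1.17, 0.75 and 0.50, and all 3 calls were lost without M replicate 3, E2 replicate 1 or E2 replicate 2, and that of Neo1 also without M replicate 1 (adjusted p up to 0.0912, 0.104 and 0.168).

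Growth factors and their receptors changed in both directions: of 44 tested, 4 were higher in M and 4 were lower (18.2%, against 3.5% overall). Igfbp4, a secreted binding protein of insulin-like growth factors, had 285, 307 and 266 CPM in M and 115, 174 and 206 CPM in E2 (log2 fold change 0.79 ± 0.26, adjusted p = 0.00537; 0.0641 with the 6 libraries fitted alone). The 4 lower genes belong to the PDGF and VEGF systems. Pdgfc, a platelet-derived growth factor, had 1.1, 1.74 and 1.49 CPM in M and 3.49, 5.45 and 4.10 CPM in E2 (-1.53 ± 0.26, adjusted p = 0.00233). Pdgfb had 15.7, 17.1 and 19.8 CPM in M and 44.0, 27.0 and 32.8 CPM in E2 (-0.97 ± 0.23, adjusted p = 0.00598), and Vegfc, a growth factor of lymphatic vessels, 2.69, 2.01 and 1.17 CPM in M and 6.51, 6.49 and 5.08 CPM in E2 (-1.6 ± 0.36, adjusted p = 0.00574). Nrp1, a co-receptor of VEGF and semaphorins, had 8.33, 19.8 and 14.4 CPM in M and 36.3, 44.4 and 46.5 CPM in E2 (-1.57 ± 0.38, adjusted p = 0.00557). The clones did not overlap for any of these 5 genes; the Pdgfb call was lost without E2 replicate 1 (0.0595) and that of Vegfc without M replicate 3 (0.0552). Axl, a receptor tyrosine kinase, had 895, 1058 and 988 CPM in M and 675, 662 and 731 CPM in E2 (0.51 ± 0.08, adjusted p = 0.0312), and Ngfr, a neurotrophin receptor, had 1.1, 4.41 and 3.37 CPM in M and 0, 0 and 0.304 CPM in E2. Both calls were lost without M replicate 2 or 3 or E2 replicate 1 or 2 (adjusted p up to 0.115 and 0.119). Egfr, Erbb2, Erbb3, Met, Fgfr1 and Fgfr2 were not called, and their log2 fold changes lay between -0.50 and 1.40.

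In the TGF-beta and BMP pathway, 3 of 39 tested genes were higher in M and 1 was lower (10.3%, against 3.5% of all tested genes). Smad3, a transcription factor activated by TGF-beta receptors, had 86.2, 86.1 and 83.7 CPM in M and 54.7, 49.0 and 59.5 CPM in E2 (log2 fold change 0.65 ± 0.08, adjusted p = 0.00335; 0.0615 with the 6 libraries fitted alone). Id3, a target gene of BMP signalling, had 2.03, 3.38 and 3.53 CPM in M and 11.7, 6.18 and 8.72 CPM in E2 (-1.54 ± 0.36, adjusted p = 0.00291). The receptor Smad and the BMP target thus moved in opposite directions, each without overlap. Tgfbr3, betaglycan, and Ltbp1, a latent TGF-beta binding protein, were higher by 1.43 and 0.55, calls that were lost without M replicate 3 or E2 replicate 1 or 2 (adjusted p up to 0.123 and 0.18). In the Wnt pathway 1 of 27 genes was called (3.7%, near the share of all tested genes). It was the ligand Wnt7a, with 67.8, 55.9 and 66.0 CPM in M and 35.2, 32.3 and 35.5 CPM in E2 (0.88 ± 0.10, adjusted p = 0.00134). In the Notch pathway 1 of 22 was called (4.55%, also near that share). It was the coactivator Maml1 (0.61 ± 0.19, adjusted p = 0.0258), and the call was lost without M replicate 3 or E2 replicate 1 (up to 0.151). Among 28 targets of YAP and TEAD, 2 were higher and 1 was lower (10.7%). The higher genes were Axl and Amotl1 (0.56 ± 0.14, adjusted p = 0.0277), and neither was called without M replicate 3, E2 replicate 1 or E2 replicate 2. Asap1, an Arf GTPase-activating protein, had 31.5, 41.0 and 34.5 CPM in M and 90.3, 60.4 and 76.6 CPM in E2 (-1.08 ± 0.20, adjusted p = 0.000159). Ccn2, the target most often used as a readout of YAP, had 24.9, 56.9 and 43.3 CPM in M and 85.1, 84.6 and 62.5 CPM in E2, all M libraries below E2, without passing the test (adjusted p = 0.0533).

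Epithelial identity genes had 4 lower and no higher call among 45 tested (8.89%, against 3.5% of all tested genes), and a median of -0.09. Esrp1, the splicing regulator of epithelial cells, had 52.4, 44.7 and 47.2 CPM in M and 101, 93.4 and 83.6 CPM in E2 (log2 fold change -0.95 ± 0.10, adjusted p = 0.000159). Krt14, a keratin of basal epithelial cells, had 0.441, 0.27 and 0.162 CPM in M and 6.35, 2.83 and 3.68 CPM in E2 (-3.61 ± 0.47, adjusted p = 0.0041), and Dsg2, a desmosomal cadherin, 13.4, 16.9 and 17.0 CPM in M and 26.7, 32.6 and 31.1 CPM in E2 (-0.93 ± 0.14, adjusted p = 0.00172). All 3 were lower in every M library. Rab25 was at most 0.049 CPM in M and between 0.456 and 2.65 CPM in E2, a call that was lost without M replicate 1 or 3 or E2 replicate 1 or 2 (adjusted p up to 0.216). The adhesion molecule Cdh1, E-cadherin, had 31.2, 45.8 and 32.0 CPM in M and 71.1, 41.0 and 43.3 CPM in E2 and did not pass the test (-0.51 ± 0.31, adjusted p = 0.158). Of 17 mesenchymal genes tested, 1 was higher (Axl) and 1 was lower (11.8% in all), 14 had positive log2 fold changes and the median was 0.51. The higher call was lost without M replicate 2 or 3 or E2 replicate 1 or 2. The lower call was lost without M replicate 1 or any E2 library. Vim, vimentin, overlapped between the clones (0.09 ± 0.47); Zeb2, a transcriptional repressor of Cdh1, had 46.7, 49.5 and 48.4 CPM in M and 18.5, 39.5 and 38.8 CPM in E2 (adjusted p = 0.108), and Snai2 had 3.31, 4.34 and 4.76 CPM in M and 1.61, 1.43 and 1.03 CPM in E2 (adjusted p = 0.143). Cdh2 was at 0 counts in all 6 libraries. Of 12 luminal and basal mammary genes tested, 1 was higher in M and 1 was lower (16.7%, against 3.5% of all tested genes). The luminal factor Gata3 (-0.11 ± 0.29) and Esr1 (0.32 ± 0.25) were not called.

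Immune-related lists had calls in both directions. Of 40 interferon-stimulated genes, 2 were higher in M and 1 was lower (7.5%, against 3.5% of all tested genes), with a median of 0.03. Oasl1, an inhibitor of interferon production, had 5.51, 5.66 and 9.58 CPM in M and 0.937, 3.18 and 1.49 CPM in E2 (log2 fold change 1.83 ± 0.56, adjusted p = 0.003). The guanylate-binding protein Gbp2 had 5.11, 2.50 and 2.95 CPM in M and 10.5, 11 and 10.6 CPM in E2 (-1.6 ± 0.31, adjusted p = 0.00484). Interferon-induced genes were thus found on both sides, while Isg15 (0.09 ± 0.49) was not called; Rsad2, below 2 CPM in M, was higher with a call lost without M replicate 3 or E2 replicate 2 or 3 (adjusted p up to 0.123). Of 25 class I antigen presentation genes (4% called), only the immunoproteasome subunit Psmb8 was called (-1.17 ± 0.19), and the call held only without E2 replicate 1, while the other 5 fits gave adjusted p values up to 0.152. B2m, H2-K1 and H2-D1 had log2 fold changes of 0.09, -0.03 and 0.29 and were not called. Of 17 checkpoint and natural killer cell ligands, 2 were higher in M (Nt5e and Pvr) and 1 was lower (Lgals1), 17.6% in all. Nt5e, CD73, the surface enzyme that makes adenosine, had 70.2, 79.4 and 82.6 CPM in M and 31.0, 40.1 and 42.6 CPM in E2 (1.03 ± 0.16, adjusted p = 0.000132). Lgals1, galectin 1, was lower in M (-0.68 ± 0.15, adjusted p = 0.0208), a call lost without M replicate 3 or E2 replicate 1 (up to 0.121). Among 29 cytokine genes, 2 were higher and 2 lower (13.8%). Kitl, the ligand of the Kit receptor, had 120, 116 and 138 CPM in M and 39.7, 85.7 and 65.5 CPM in E2 (0.97 ± 0.33, adjusted p = 0.0153; 0.0805 without M replicate 3). Il1a, Ccl20 and Il15 had log2 fold changes of 2.04, -2.36 and -2.45 at mean levels under 5 CPM in both clones, and none of these calls was stable. The Il1a call was lost without M replicate 2 or any E2 library, and those of Ccl20 and Il15 without M replicate 1 or 3 or E2 replicate 2 or 3 (adjusted p up to 0.0812, 0.131 and 0.222). The myeloid factors Csf1, Csf2 and Csf3 were not called (-0.13, -0.31 and 0.06).

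Cell survival and stress lists had between 1 and 4 calls each, apart from the antioxidant genes, which had none. The list of p53, CDK inhibitors and the Bcl2 family (2.78% called) and the ATF4 list (2.17%) were below the 3.5% of all tested genes. Bcl2l1, which encodes the anti-apoptotic protein Bcl-xL, was the only call among 36 genes of p53, CDK inhibitors and the Bcl2 family, with 44.7, 50.6 and 41.1 CPM in M and 17.7, 22.3 and 26.4 CPM in E2 (log2 fold change 1.04 ± 0.19, adjusted p = 0.000678). Ddit4, an inhibitor of mTORC1 induced by stress, was the only call among 46 genes of the ATF4 response, with 13, 17.4 and 15 CPM in M and 41.0, 27.9 and 33.9 CPM in E2 (-1.17 ± 0.20, adjusted p = 0.000159). Neither gene overlapped between the clones. Of 36 immediate early and heat shock genes, Fosb and Dusp4, given above, were higher and 2 chaperones were lower (11.1% in all). The constitutive chaperone Hspa8 had 144, 194 and 196 CPM in M and 319, 300 and 362 CPM in E2 (-0.88 ± 0.17, adjusted p = 0.00574), and its relative Hspa4l was lower by the same amount (-0.88 ± 0.29, adjusted p = 0.00557). Of 32 endoplasmic reticulum chaperones and stress genes, 3 were higher and 1 lower (12.5%). Derl1, of the degradation channel of the endoplasmic reticulum, had 11.1, 10.3 and 9.68 CPM in M and 29.4, 26.0 and 23 CPM in E2 (-1.33 ± 0.12, adjusted p = 6.09e-06). The 3 higher genes, the co-chaperone Dnajc3, the oxidase Ero1a and the disulfide isomerase Pdia4, had log2 fold changes of 0.68, 0.65 and 0.63; Dnajc3 was lost without E2 replicate 1 (0.063), Ero1a without that library or M replicate 3 (up to 0.0997), and Pdia4 in each of the 6 fits that left out a library (up to 0.152). Dnajc3 and Ero1a lie on chromosome 14, where all 44 called genes were higher in M, and Derl1 lies on chromosome 15. Of 38 antioxidant genes under NRF2, none was called, and of 74 nuclear genes of the respiratory chain only Ndufb9 was, which lies on chromosome 15 and is described with it.

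Cell cycle genes set M replicate 2 apart from the other M libraries. The 56 cell cycle and mitosis genes summed to 2491, 3872 and 2447 CPM in M and 3313, 3370 and 3622 CPM in E2, so that M replicates 1 and 3 lay below every E2 library and M replicate 2 above every one. With all libraries 1 member was lower in M and 2 were higher (5.36%, against 3.5% of all tested genes), although 50 of 56 log2 fold changes were negative. The median was -0.53. Without M replicate 2, 31 members were lower and 2 higher, and the median was -0.89. Over all tested genes that fit called 415 of 12708 lower and 308 higher, against 200 and 245 of 12712 in the full fit. Mki67, a marker of cycling cells, had 39.3, 241 and 86.6 CPM in M and 236, 156 and 236 CPM in E2, and Top2a, topoisomerase II alpha, 136, 456 and 210 CPM in M and 465, 474 and 564 CPM in E2. The lower gene in the full fit was Ccna2, cyclin A2, with 24.1, 61.3 and 41.1 CPM in M and 84.7, 105 and 102 CPM in E2 (-1.20 ± 0.40, adjusted p = 0.0075). The 2 higher genes were D-type cyclins, which act at the entry to the cycle, and here M replicate 2 was no exception. Ccnd2 had 371, 290 and 352 CPM in M and 152, 187 and 192 CPM in E2 (0.93 ± 0.15, adjusted p = 0.000737), and Ccnd1 had 889, 885 and 703 CPM in M and 484, 537 and 566 CPM in E2 (0.64 ± 0.13, adjusted p = 0.00673). The calls of Ccna2, Ccnd1 and Ccnd2 held with any of the 6 libraries left out, and that of Ccnd1 was lost with the 6 libraries fitted alone (adjusted p = 0.0897).

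Replication-dependent histone genes showed the same split. Their 32 listed members summed to 83.5, 313 and 83.4 CPM in M and 232, 271 and 225 CPM in E2. With all libraries none of 31 tested members was called, and the median was -0.68. Without M replicate 2, 16 of 32 were lower in M, beside 415 of all 12708 genes tested in that fit. The median was then -1.80. The RNA of these histone genes carries no poly(A) tail and the genes are close copies, so single values are uncertain. Cholesterol genes followed the pattern, with sums of 536, 899 and 622 CPM in M and 876, 859 and 851 CPM in E2, and a median of -0.41. Of 33 members 3 were lower in M (9.09%, against 3.5% of all tested genes), and 11 of 34 without M replicate 2. The 3 were Sqle, Idi1, both enzymes of sterol synthesis, and Stard4, a sterol carrier (-0.82, -1.23 and -0.85), and each call was lost without M replicate 1 or 3 or E2 replicate 1, and those of Idi1 and Stard4 also without E2 replicate 2 or 3 (adjusted p up to 0.101, 0.182 and 0.232). Fatty acid genes summed to 1210, 1826 and 1400 CPM in M and 1792, 1774 and 1839 CPM in E2; none of 32 was called, and 4 were lower in M without M replicate 2. Fasn, fatty acid synthase, had 110, 192 and 95.8 CPM in M and 252, 152 and 220 CPM in E2, with the M replicate 2 value inside the E2 range. M replicate 2 was also the most deeply sequenced of the 6 libraries, with 36831801 counts, and the part of depth in these values was not tested. Matricellular genes summed to 449, 758 and 696 CPM in M and 927, 877 and 959 CPM in E2, with all 3 M libraries below E2 and M replicate 2 the highest of them; Thbs1, given above, made up most of each sum.

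**Figure D3:**
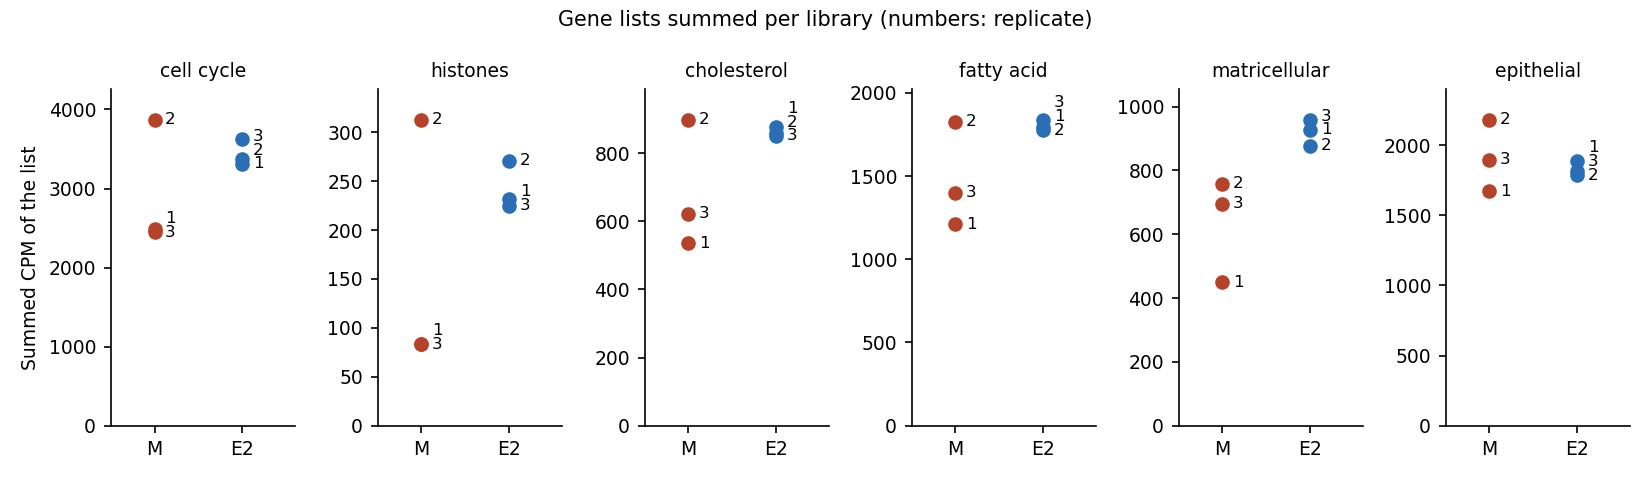
Summed CPM of the genes of 6 lists in each library, M left and E2 right, with the replicate number beside each point and the axis starting at 0. In the cell cycle, histone, cholesterol and fatty acid panels M replicate 2 lies within or above the E2 values, while M replicates 1 and 3 lie below them, at 2491 and 2447 CPM for the cell cycle.

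The calls were unevenly spread over the chromosomes. Chromosomes 6, 14 and 16 held 96 of the 245 genes higher in M (39.2%) but 11% of the tested genes, and chromosomes 3 and 15 held 83 of the 200 genes lower in M (41.5%) but 8.57% of the tested genes. With all 6 libraries in the fit, chromosomes 14 and 16 had no gene called lower in M and chromosome 15 none called higher. Outside these 5 chromosomes 2.53% of 10227 tested genes were called, 147 higher and 112 lower.

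**Figure D4:**
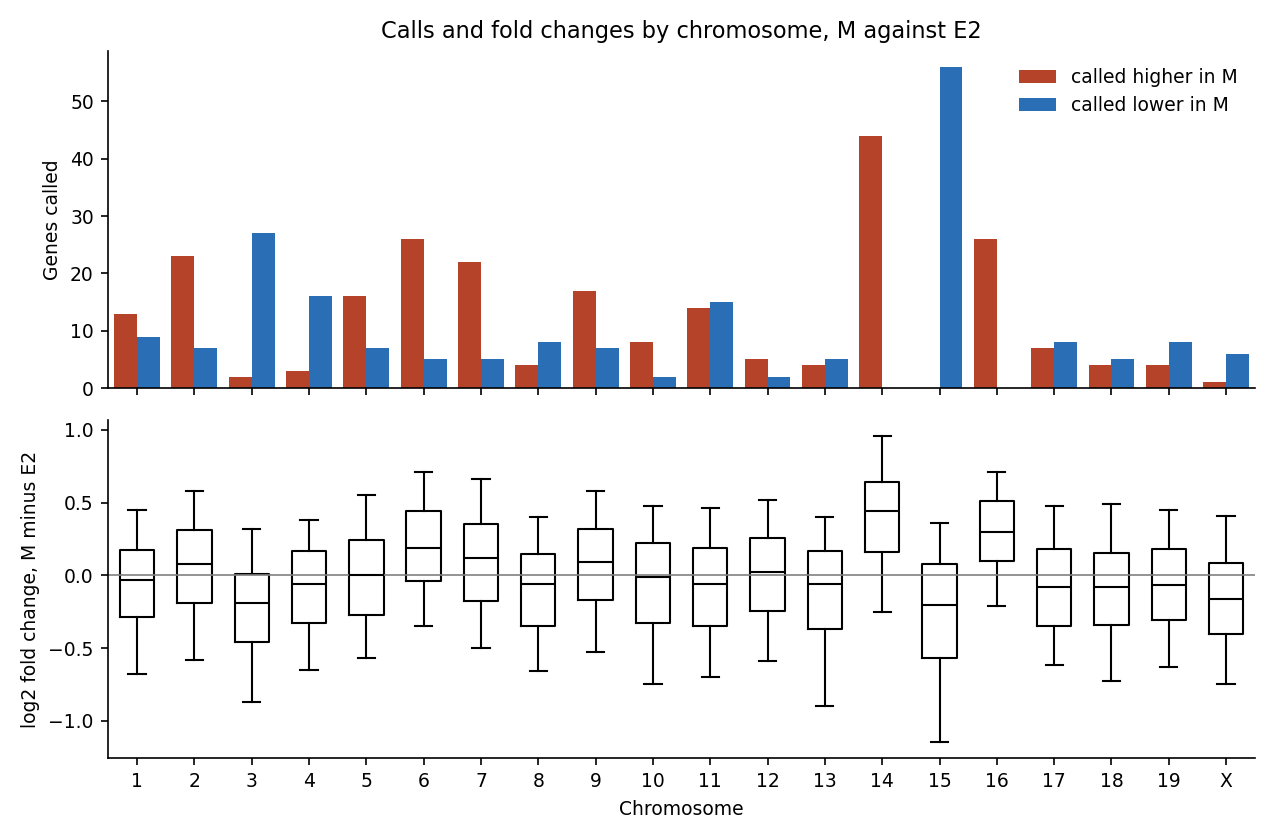
Above, the number of genes called higher (red) and lower (blue) in M for each chromosome, with bars from 0; below, the log2 fold changes of M minus E2 of all tested genes of the chromosome, with boxes from the 25th to the 75th percentile, the median as a line and whiskers at the 10th and 90th percentiles. Chromosome 14 has 44 higher calls and a median of 0.43, and chromosome 15 has 56 lower calls and a median of -0.20.

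Chromosome 14 was higher in M in every window measured. Of its 413 tested genes, 44 were called, all higher in M (10.7%), 83.1% had a positive log2 fold change and the median was 0.43. All 10 windows of 10 Mb with at least 10 tested genes, the ones counted for each chromosome, had a median above 0, between 0.31 and 0.51. The genes with the smallest adjusted p, chosen after their values were seen, were Fermt2, given above, Ctsb and Slc39a14. Ctsb, the lysosomal protease cathepsin B, had 59.0, 64.7 and 64.6 CPM in M and 19.5, 30.6 and 33.8 CPM in E2 (log2 fold change 1.16 ± 0.25, adjusted p = 0.000159), and Slc39a14, a zinc and iron transporter, had 55.1, 68.0 and 50.2 CPM in M and 24.7, 28.7 and 36.4 CPM in E2 (0.95 ± 0.21, adjusted p = 0.00109). The clones did not overlap for either. The metalloprotease Mmp14 lies on this chromosome and had 26.9, 30.4 and 30.7 CPM in M and 19.8, 21.1 and 20 CPM in E2, a log2 fold change of 0.53 ± 0.07 near the chromosome's median, without passing the test (adjusted p = 0.0579). Without M replicate 3 or E2 replicate 1 the count of higher genes was 22 or 25, but the median stayed between 0.38 and 0.47 in the 6 fits that left out a library, and 12 of the 44 calls held in all of them.

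Chromosomes 16 and 6 showed the same kind of shift at smaller size. On chromosome 16, 26 of 393 tested genes were higher in M (6.62%, against 3.5% of all tested genes called). The median was 0.30, and all 8 windows had medians between 0.26 and 0.33. Hmgn1, a nucleosome-binding protein chosen after its values were seen, had 118, 112 and 107 CPM in M and 58.3, 69.9 and 62.1 CPM in E2 (log2 fold change 0.83 ± 0.09, adjusted p = 0.000521). Cxadr, the adhesion receptor of coxsackieviruses and adenoviruses, chosen likewise, had 462, 303 and 439 CPM in M and 145, 255 and 247 CPM in E2 (0.90 ± 0.33, adjusted p = 0.00528; 0.0626 with the 6 libraries fitted alone). Both were above E2 in every M library. On chromosome 6, 26 of 589 genes were higher and 5 lower (5.26% in all), the median was 0.19, and all 15 windows had medians above 0. Ccnd2, Flnc, Wnt7a, Fbln2 and Plxnd1, described above, lie there, as does Gpnmb, a transmembrane glycoprotein of tumour cells chosen after its values were seen, with 105, 95.4 and 99.9 CPM in M and 35.5, 51.4 and 53 CPM in E2 (1.1 ± 0.19, adjusted p = 0.000763). The counts depended on single libraries: chromosome 16 had 16 higher genes without M replicate 1, 11 without M replicate 3 and 8 without E2 replicate 1, and chromosome 6 had 13 without M replicate 3 and 11 without E2 replicate 1. The medians moved less, between 0.27 and 0.37 for chromosome 16 and between 0.19 and 0.21 for chromosome 6.

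Chromosome 3 was lower in M. Of its 604 tested genes 27 were lower and 2 higher (4.8% in all, against 3.5% of all tested genes). A negative log2 fold change was found for 73%, the median was -0.19 and all 16 windows had medians below 0. Postn, Ccna2, Vcam1, Pdgfc, Gbp2 and Hspa4l lie on it. Hltf, a DNA translocase of replication fork repair chosen after its values were seen, had 26.4, 32.7 and 24.3 CPM in M and 56.5, 58.3 and 57.5 CPM in E2 (log2 fold change -1.04 ± 0.13, adjusted p = 0.000368). Adh7, an alcohol dehydrogenase that acts on retinol, chosen likewise, had 7.23, 8.95 and 6.38 CPM in M and 19.5, 16.2 and 16 CPM in E2 (-1.18 ± 0.17, adjusted p = 0.00125). The clones did not overlap for either gene. The lower count was 44 without M replicate 2 and 15 or 16 without any 1 of M replicates 1 and 3 and E2 replicates 1 and 2, while the median stayed between -0.21 and -0.17. Windows of 1 sign were not particular to the chromosomes named: all windows of chromosomes X (13), 11 (13) and 19 (7) had medians below 0. Chromosome X had a median of -0.16 and 67.7% negative log2 fold changes, with 1.87% of its genes called. The medians of chromosomes 11 and 19 were -0.06 and -0.07.

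Chromosome 15 carried the most concentrated difference. All 56 called genes among its 486 tested genes were lower in M (11.5%), and they clustered: between 50 and 70 Mb, 26 of 53 tested genes were called (49.1%) and the median log2 fold change was -0.84. The 2 windows of this stretch, with 17 of 36 genes lower between 50 and 60 Mb and 9 of 17 between 60 and 70 Mb, were the only ones of 253 considered in the genome with at least 40% of genes called in 1 direction. A second cluster lay between 78 and 80 Mb, where 13 of 42 tested genes were lower, and beyond 80 Mb 4 of 214 were called with a median of -0.01. Below 50 Mb 8 of 100 genes were lower, 83% had a negative log2 fold change and the median was -0.22. Without E2 replicate 2 only 1 of these genes was called, while the median stayed between -0.25 and -0.18 whichever library was left out. Atad2, a bromodomain protein of chromatin (chromosome 15, start 58094044), had 76.2, 83.7 and 69.2 CPM in M and 217, 249 and 225 CPM in E2 (-1.59 ± 0.10, adjusted p = 3.24e-08). Ndufb9, a subunit of respiratory complex I, had 7.89, 4.66 and 4.89 CPM in M and 22.2, 23 and 20.9 CPM in E2 (-1.92 ± 0.24, adjusted p = 1.6e-06). No M library came near an E2 library for either gene. Mtbp, an MDM2-binding protein of replication control, had 13.8, 18.0 and 12.7 CPM in M and 45.5, 41.7 and 35.6 CPM in E2 (-1.45 ± 0.18, adjusted p = 2.74e-06), and Tbc1d31, a centriolar satellite protein, 12.8, 17.7 and 22.3 CPM in M and 53.8, 52.9 and 51.7 CPM in E2 (-1.58 ± 0.23, adjusted p = 2.11e-06).

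The other genes named from this stretch were Pvt1, Efr3a, Phf20l1 and Ndrg1. Pvt1, a long noncoding RNA beside Myc, had 11.4, 6.59 and 7.51 CPM in M and 24.7, 24.1 and 17.5 CPM in E2 (log2 fold change -1.38 ± 0.28, adjusted p = 0.000159). Myc itself, chosen after its values were seen, had 101, 92.5 and 90.6 CPM in M and 131, 132 and 127 CPM in E2; every M library was below every E2 library, but the difference of -0.46 ± 0.05 did not pass the test (adjusted p = 0.0726). Efr3a, which anchors a lipid kinase at the plasma membrane, had 117, 95.5 and 106 CPM in M and 225, 248 and 230 CPM in E2 (-1.15 ± 0.09, adjusted p = 6.09e-06). Ndrg1, a gene induced by hypoxia and other stress, had 42.8, 42.4 and 49.2 CPM in M and 113, 128 and 106 CPM in E2 (-1.37 ± 0.11, adjusted p = 6.15e-06), and Phf20l1, a reader of histone methylation, had 31.9, 37.0 and 37.9 CPM in M and 86.2, 93.0 and 77.6 CPM in E2 (-1.26 ± 0.11, adjusted p = 6.09e-06). In each of these 4 called genes the highest M library lay well below the lowest E2 library. Derl1, Asap1, Has2, Sqle, Ccn4 and Ptk2, described with their pathways, also lie on chromosome 15, as do Pdgfb, Lgals1, Gcat and Pdxp. Gcat, an enzyme of threonine breakdown, and the phosphatase Pdxp belong to the second cluster, with log2 fold changes of -1.71 ± 0.57 and -1.89 ± 0.69; the Gcat call was lost without M replicate 3 (adjusted p = 0.0634) and that of Pdxp with the 6 libraries fitted alone (0.0517). Ddx17, an RNA helicase of the same cluster chosen after its values were seen, had 179, 158 and 144 CPM in M and 376, 325 and 339 CPM in E2 (-1.11 ± 0.11, adjusted p = 7.92e-06). Of 41 genes of hypoxia and glycolysis, 1 was higher in M and 2 were lower, Ndrg1 and Car9 (7.32%, against 3.5% of all tested genes). Car9, carbonic anhydrase IX, lost its call without M replicate 1 or 2 or E2 replicate 1 or 2 (with adjusted p values up to 0.271). Of the 56 chromosome 15 calls, 33 held with any 1 library left out, and the count ranged from 38 to 59.

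The other populations were read side by side to place the 2 clones, as levels and without a test. Between 50 and 70 Mb of chromosome 15 the median log2 level relative to the parental mean was -1.51, -1.25 and -1.28 in the M libraries and -0.39, -0.29 and -0.30 in the E2 libraries, and -1.32 in A and -0.40 in E1. In this stretch M lay with A, and E2 with E1. On chromosome 14 both clones lay below the parental level, at -0.36, -0.33 and -0.35 in M and -0.80, -0.71 and -0.72 in E2, with A at -0.32 and E1 at -0.47. On chromosome 16 M was above the parental level, at 0.32, 0.24 and 0.24, and E2 near it, at -0.09, -0.04 and 0.02, with A at 0.30 and E1 at 0.06. On chromosome 3 M was at -0.18, -0.13 and -0.12 and E2 at 0.05, 0.14 and 0.08. A stood at 0.15 and E1 at 0.01 there. On chromosome 6 M was at 0.20, 0.28 and 0.27 and E2 at 0.08, 0.09 and 0.09. A stood at -0.18 and E1 at 0.06 there. On chromosomes 3 and 6, then, A did not lie with M. M replicate 2 lay with the other M libraries in all of these medians. Postn averaged 0.422 CPM in M and 11.3 CPM in E2, and 1.21 CPM in E1, 0.116 CPM in A and 0.768 CPM in the parental population, so the level of E2 was the high one. Rasef averaged 1.5 CPM in M and 12.7 CPM in E2, and 14.9, 6.04 and 10.9 CPM in E1, A and the parental population, so here the M level was the low one. Spp1 averaged 108 CPM in M and 42.2 CPM in E2, and 36.6 CPM in E1, 1373 CPM in A and 116 CPM in the parental population.

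**Figure D5:**
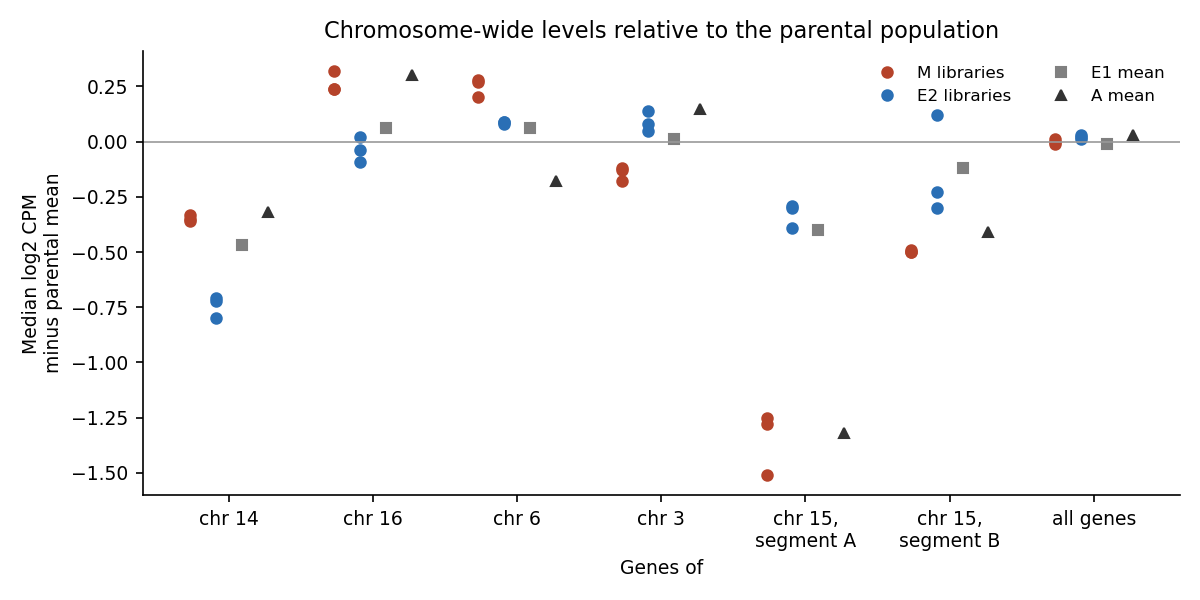
Median log2 CPM relative to the mean of the parental libraries over the tested genes of each chromosome or segment, with 1 point for each M and E2 library and 1 for the mean of E1 and of A; segment A is chromosome 15 from 50 to 70 Mb and segment B from 70 to 80 Mb. In segment A the M libraries lie at -1.51 to -1.25 and the E2 libraries at -0.39 to -0.29, while over all tested genes every point lies within 0.03 of 0.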

How the data were processed

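RNA was sequenced from 15 libraries of 4T1 cells, and the 3 M and 3 E2 libraries were compared. The deposited files hold raw counts per gene, which the authors produced using HISAT2 and featureCounts on builds GRCm38 and mm10, per the submitters' processing notes, from a directional library prep per the labels. The strand setting of the counting is not given in the sources used here, so overlapping genes, and close copies such as histone, ribosomal protein and small RNA genes, are uncertain. The authors' normalized tables and their DESeq2 table were not used.

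Identifiers were joined to RefSeq symbols and GRCm38.p6 coordinates, with GENCODE links where RefSeq lacked them, and 1886 of 27179 stayed unnamed. Counts of all 15 libraries were fitted with edgeR 4.0.16 in R 4.3.3 (filterByExpr with minimum count 10 and total 15, TMM, robust quasi-likelihood fit on population alone), which kept 12712 genes at a biological coefficient of variation of 0.255. The contrast was M minus E2, with Benjamini-Hochberg adjusted p under 0.05 as the call and a prior count of 2 for fold changes. SE were computed from the SD of log2 CPM within each clone. On simulated counts for this comparison the test recovered 59 of 100 genes changed 2-fold and 93 of 100 changed 4-fold among 12471 genes, with 9 false calls.

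Named genes with a symbol, a call, a mean of at least 5 CPM in the higher clone and no overlap between the clones were the 15 with the largest fold change in each direction. To these were added core members and up to 5 called members of 40 gene lists, and up to 4 genes per window of 10 Mb with at least 10 tested genes of which at least 40% were called in 1 direction. Members and lists were chosen with earlier results of these data known, and lists are described by counts, with no test. Of 1512 list entries, 4 matched no identifier. Alternatives were RLE size factors, no filter, minimum count 30, DESeq2 1.42.0, the 6 libraries alone, a replicate block, the 6 most counted genes left out, the share of the most counted gene as a covariate, and each library left out. Counts for lists and chromosomes without single libraries were added after seeing the data. A clone with 0 counts in all libraries was given a floor of 3 counts over its libraries, which covers counting error only, since reads without molecular identifiers can be copies of 1 molecule. Some members of the lists are not reported here by name.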

Additional observations from a re-analysis of the deposited data

How the results depend on the processing

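No gene called in the comparison changed sign under any alternative that tested it. The count of 445 genes (245 higher and 200 lower in M, 186 of at least 2-fold) was 790 with no filter (409 higher, 381 lower, 289 of at least 2-fold), 743 with DESeq2 (412 and 331), 760 with the share of the most counted gene as a covariate (428 and 332) and 174 with the 6 libraries alone (71 and 103), and 168 of those 174 were among the 445. Leaving out 1 library gave 208 to 723 genes, 112 to 308 higher, 96 to 415 lower and 116 to 373 of at least 2-fold. The cause of these differences was not tested. RLE size factors (451), a minimum count of 30 (485) and leaving out the 6 most counted genes (477) stayed within 1.5 times. With the replicate number as a replicate block 699 genes were called (386 higher, 313 lower), 443 of them among the 445. Same-numbered M and E2 libraries had correlations of their deviations of 0.0403, -0.0517 and 0.0404. M replicates 1 and 3 correlated best with the E2 library of their number, and M replicate 2 with E2 replicate 3 (0.0414). These values cannot decide whether the numbers pair the libraries, since they are small and deviations from a clone's mean cancel within the clone. Of the 109 called genes under the naming rule, 43 were no longer called with the 6 libraries alone. The shallowest library had 6164768 counts outside the 6 most counted genes. With 59 of 100 simulated 2-fold changes and 93 of 100 simulated 4-fold changes recovered, a gene that was not called may still differ by 2-fold or more.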

Other observations

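Of 813 tested noncoding RNA genes and pseudogenes, 19 were lower in M and none was higher (2.34% called, against 3.5% of all tested genes), with a median log2 fold change of -0.29, against 243 higher and 179 lower among 11563 protein-coding genes with a median of 0.01. The 19 were 8 of 439 long noncoding RNAs, 6 of 90 small nucleolar RNAs and single members of other classes. Terc, the RNA of telomerase, chosen after its values were seen, had 18.7, 8.16 and 13.1 CPM in M and 31.7, 44.4 and 23.6 CPM in E2 (log2 fold change -1.32, adjusted p = 0.0137), with no overlap, and the call was lost without M replicate 3 or E2 replicate 1 or 2 (adjusted p up to 0.0723). Rnu3b2, a copy of the U3 small nucleolar RNA, had 0.793, 0.931 and 0.453 CPM in M and 1.20, 8.80 and 7.17 CPM in E2 (-2.87, adjusted p = 0.00286), and reads of its near-identical copies cannot be told apart. A further 336 tested identifiers carry no type in the annotation, are in neither count, and had 2 higher and 2 lower calls.

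Among called genes, 6 had 0 counts in all libraries of 1 clone, at low levels in the other. Rapgef5, an exchange factor of Rap GTPases, had 0 counts in M and 1.93, 0.838 and 0.912 CPM in E2, which is at least 38.5-fold lower in M against a floor of 3 counts over the M libraries. Trim43a and Gprin3 were likewise at least 20.1-fold and 15.1-fold lower. Il3ra, a receptor chain for interleukin 3, had 1.06, 0.466 and 0.583 CPM in M and 0 counts in E2, at least 18.9-fold higher in M, and Car6 and Satb1, a chromatin organizer, were at least 15-fold and 12.4-fold higher. Satb1 stood at 0.925, 0.392 and 0.0648 CPM in the M libraries, and Car6 was at 0 in M replicate 2. The calls of Rapgef5 and Satb1 held without each library in turn. The Il3ra call was lost without M replicate 1 or any E2 library (adjusted p up to 0.073), that of Car6 was kept only without M replicate 2 (up to 0.14), that of Gprin3 only without E2 replicate 1 (up to 0.113), and that of Trim43a in none of these fits (up to 0.157).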
